A study of Mus musculus with 6 samples.

Results

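The genes described here are 10 mouse genes that govern how a cell takes up, moves, esterifies and exports cholesterol, measured in immortalized podocytes, the epithelial cells that cover the glomerular capillary. They are a fixed set of symbols, picked by function by a rule that used no measured value, although earlier results of these data were known when the set was made: Scarb1 and Npc1l1 (uptake), Npc1 and Npc2 (exit from the lysosome), Soat1 (esterification), Nr1h2 and Nr1h3 (the liver X receptors, LXR), and Abca1, Abcg1 and Apoe (efflux). All 10 were found among the 57132 genes of the count table, and all 10 were among the 16263 genes with enough counts to be tested. RNA-seq was performed on 3 samples of WT podocytes (line IMWT, genotype Col4a3+/+) and 3 samples of AS podocytes (line IMAS, genotype Col4a3-/-), where AS stands for Alport syndrome, a basement membrane disease caused by faulty type IV collagen. The lines are recorded as coming from male mice 8 weeks old and were untreated. Both carry the H-2Kb-tsA58 transgene, a heat-sensitive viral oncogene that lets cells divide at 33 °C with interferon gamma, and both were differentiated at 37 °C, for 14 days according to the sample records. The study's methods name a shorter differentiation and another medium. Each genotype is 1 cell line, so that the effect of genotype and a difference between lines cannot be told apart. The labels number the samples of a line as sets 1 to 3 without saying whether a set is a separate culture, so that the p-values measure the spread between these samples, which may be technical.

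Cells receive cholesterol from lipoproteins through receptors, by whole-particle endocytosis or, in the case of the scavenger receptor SR-BI encoded by Scarb1, by selective transfer of cholesteryl ester at the surface. Endocytosed ester is hydrolysed in the lysosome, where the soluble protein NPC2 hands free cholesterol to the membrane protein NPC1 for export. Surplus cholesterol is re-esterified by ACAT1, the product of Soat1, for storage in lipid droplets, or is converted to oxysterols, which activate LXR. With its partner RXR, LXR switches on the transporters ABCA1 and ABCG1 and the lipoprotein component ApoE, which pass cholesterol to acceptors outside the cell. NPC1L1, a relative of NPC1, is the intestinal cholesterol uptake protein that ezetimibe blocks. Impaired efflux through ABCA1 has been studied as a source of lipid injury in podocytes.

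Promoter windows of 7 members, 10 windows in all, were found in the RefSeq table, which spans 250 bases before to 50 bases after an annotated start. Abcg1, Scarb1 and Npc1 had no entry. Nr1h3 had 2 overlapping windows, of which 1 is shown. The windows of 4 genes are shown, because they belong to an LXR target with high expression, to the LXR gene with high and the LXR gene with very low expression, and to the member with the highest expression per length. Coordinates refer to GRCm38.p6, not to the mm39 build of the counts, and all 4 windows are on the minus strand and written 5′ to 3′: chr4:53159846-53160145 for Abca1, chr7:44553916-44554215 for Nr1h2, chr2:91195067-91195366 for Nr1h3 and chr12:84773063-84773362 for Npc2. Capitals mark, in Abca1, a direct repeat of the kind LXR and RXR bind, an E-box and a TATA box. They mark ETS cores in Nr1h2 and Nr1h3, and GC and CCAAT boxes in Npc2.
Abca1: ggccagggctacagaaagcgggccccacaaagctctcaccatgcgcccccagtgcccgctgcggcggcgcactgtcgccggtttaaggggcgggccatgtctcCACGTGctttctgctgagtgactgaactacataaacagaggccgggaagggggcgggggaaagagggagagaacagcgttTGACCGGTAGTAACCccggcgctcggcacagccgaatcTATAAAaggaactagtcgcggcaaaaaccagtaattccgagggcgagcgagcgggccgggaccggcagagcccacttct
Nr1h2: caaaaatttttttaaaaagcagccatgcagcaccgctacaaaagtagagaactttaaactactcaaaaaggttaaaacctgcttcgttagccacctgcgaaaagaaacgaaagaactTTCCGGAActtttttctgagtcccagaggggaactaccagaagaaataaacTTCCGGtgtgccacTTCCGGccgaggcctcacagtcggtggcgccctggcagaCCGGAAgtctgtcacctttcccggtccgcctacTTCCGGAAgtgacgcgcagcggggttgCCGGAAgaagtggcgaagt
Nr1h3: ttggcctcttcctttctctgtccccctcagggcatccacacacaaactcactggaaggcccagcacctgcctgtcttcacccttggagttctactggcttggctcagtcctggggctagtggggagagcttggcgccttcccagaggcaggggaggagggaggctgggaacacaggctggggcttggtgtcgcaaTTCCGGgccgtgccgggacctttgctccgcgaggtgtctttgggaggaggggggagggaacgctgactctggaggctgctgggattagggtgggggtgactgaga
Npc2: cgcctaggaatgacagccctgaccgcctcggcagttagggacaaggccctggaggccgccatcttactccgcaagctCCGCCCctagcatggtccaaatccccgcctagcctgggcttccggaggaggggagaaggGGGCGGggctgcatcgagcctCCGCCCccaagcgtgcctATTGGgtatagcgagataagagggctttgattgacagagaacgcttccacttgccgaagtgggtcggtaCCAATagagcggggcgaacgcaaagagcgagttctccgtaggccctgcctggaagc

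Motifs were searched as fixed letters on both strands of 32851 windows of 300 bases. The direct repeat (the half-sites GGTNAN and GGTCA with 4 bases between them) began 67 bases before the Abca1 start, where the printed strand reads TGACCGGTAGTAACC. It was present in 0.207% of all windows and in no other window of a member. Its letters were set after the Abca1 window had been read, so that the match describes this window only. The E-box (CACGTG) lay 147 bases before the Abca1 start and was found in 7.15% of windows, and the TATA box (TATAAA) lay 29 bases before it and was found in 13.6%. Nr1h2 held 8 matches of the ETS core (CCGGAA), of which 2 pairs overlap each other, and 14.9% of all windows had at least 1. Each of the 2 Nr1h3 windows held 1, as did the Npc2 window, where it is not marked. The Abca1 window held 0. Npc2 held 3 GC boxes (GGGCGG, in 35.7% of windows) and 2 CCAAT boxes (CCAAT, in 37.4%). The sterol regulatory element (TCACCCCAC, in 0.551% of windows) was in no member's window. A match is a string of letters, and binding was not measured in these libraries.

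The total count was between 45417221 and 54290968 per sample. Expression is given as CPM, counts scaled to a common library size after TMM normalization, and AS was compared with WT podocytes by edgeR's quasi-likelihood test with Benjamini-Hochberg adjustment over all tested genes. Col4a3, the gene targeted in AS podocytes, was at 1087 ± 170 CPM in WT podocytes, against 68.8 ± 12.2 CPM in AS podocytes (SD, n = 3 each), and every AS sample was below every WT sample. Its RNA was thus lower but not absent in the line labelled Col4a3-/-, with 2809, 3146 and 4565 counts in the AS samples, and the counts per gene do not show which part of the transcript these reads came from. WT replicate 1 stood apart from the other WT samples. The chi-square per degree of freedom between counts was 47.65 and 49.97 for its pairs with WT replicates 2 and 3, 9.83 between those 2, and 18.8 to 22.6 between AS samples. It also had the lowest mitochondrial share of counts, 0.882% against 1.299% to 2.02% in the other samples. Of 10 podocyte markers, 7 could be tested, of which 1 was higher and 6 were lower in AS podocytes, among them Synpo, Actn4 and Cd2ap. Of all tested genes, 20.4% were higher and 19.6% lower. Of the defining markers, Tcf21 had no count in any sample. The summed level of the list was 1722 to 1894 CPM in WT podocytes, against 1291 to 1377 CPM in AS podocytes. Macrophage markers, 8 genes, summed to 23.8 to 28.5 CPM in WT podocytes, against 30.9 to 36.8 CPM in AS podocytes. This list had Adgre1 and Fcgr1 at 0 and was mostly Cd14, which was higher in AS podocytes, and Csf1r, which was lower. Endothelial markers, 6 genes, summed to at most 1.75 CPM. Kdr was lower in AS podocytes (edgeR, adjusted p = 0.0441), with 13, 42 and 28 counts in WT and 5, 15 and 2 in AS samples. Its groups overlapped by CPM, and it passed in 2 of 6 fits with 1 sample left out. Proximal tubule markers, 6 genes, summed to 377 to 424 CPM in WT podocytes, against 281 to 392 CPM in AS podocytes, nearly all of it Lrp2 and Aqp1, of which Aqp1 was lower in AS podocytes, while Slc22a6 was at 0. The part of these markers in the results on sterol genes was not tested.

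Of the 10 sterol genes, Scarb1 was higher in AS podocytes, Nr1h2 was lower, and the other 8 did not pass the threshold of an adjusted p under 0.05. This is 20.0% of the members, against 40.1% of all tested genes, 20.4% being higher and 19.6% lower. Both differences were small, at 1.18 and 0.890 times the WT level. The samples of the lines were fully separated by CPM in 3 members of 10 (Scarb1, Nr1h2 and Npc1), against 52.3% of all tested genes. The median absolute log2 fold change was 0.15 over the members and 0.28 over all tested genes. Bulk RNA cannot tell fewer cells expressing a gene from less RNA of it per cell.

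**Figure D1:**
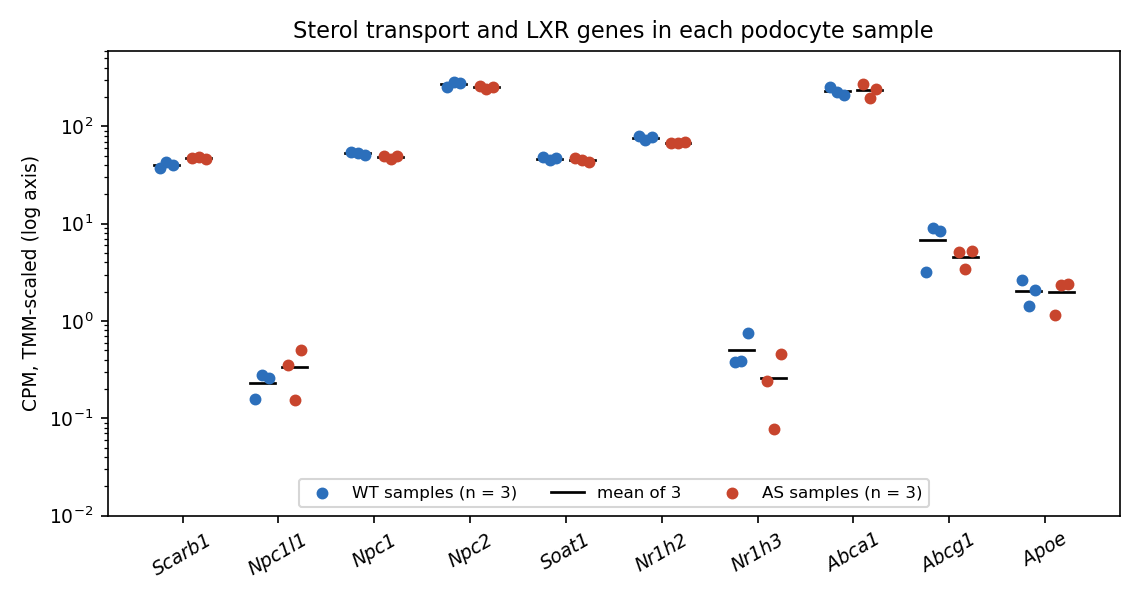
CPM (log axis) of the 10 sterol genes in each of 3 WT and 3 AS samples, with the mean of each group as a bar. Abca1 and Npc2 lie between 194 and 289 CPM in every sample, Nr1h3 and Npc1l1 lie below 1 CPM in every sample, and WT and AS points are interleaved or adjacent for each gene.

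The members covered a wide range of levels, and they were ranked by CPM per kb of merged exon so that long and short genes can be compared. Npc2 was highest, at 50.5 ± 3.19 CPM per kb in WT podocytes and 46.3 ± 1.59 in the AS line (SD, n = 3 each). Nr1h2 and Abca1 followed in WT podocytes at 22.8 ± 1.17 and 22.3 ± 2.30 CPM per kb (SD, n = 3 each), with ranges that overlapped, and they exchanged places in AS podocytes, again with overlap. Soat1, Scarb1 and Npc1 formed the next level at 4.76 ± 0.160, 4.73 ± 0.284 and 4.70 ± 0.171 CPM per kb in WT podocytes (SD, n = 3 each), each overlapping its neighbour. In AS podocytes Scarb1 was at 5.59 ± 0.137 CPM per kb (SD, n = 3) and lay apart from Soat1 at 4.59 ± 0.219 (SD, n = 3). Apoe and Abcg1 came below them, at 0.950 ± 0.284 and 0.942 ± 0.444 CPM per kb in WT podocytes (SD, n = 3 each). Nr1h3 at 0.201 ± 0.0870 and Npc1l1 at 0.0519 ± 0.0145 CPM per kb closed the order in WT podocytes (SD, n = 3 each), and they overlapped in AS podocytes. Exon lengths come from GENCODE M21 and may differ from those of the annotation that was counted. Merged exons join all annotated transcripts of a gene and can be longer than the RNA that was expressed. Close places in this order therefore depend on the lengths used.

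Scarb1 (ENSMUSG00000037936.16, chromosome 5), the gene of the HDL receptor SR-BI, was the member that was higher in AS podocytes. WT samples held 37.8, 42.7 and 40.1 CPM, and AS samples held 47.3, 48.8 and 46.5 CPM. Every AS sample was above every WT sample, and the AS samples differed little from each other. The means were 40.2 ± 2.42 and 47.5 ± 1.16 CPM (SD, n = 3 each). The log2 fold change was 0.24 (standard error 0.06, 95% interval 0.10 to 0.39, adjusted p = 0.0146). It passed the threshold in 5 of 6 fits with 1 sample left out, and without AS replicate 2 it was 0.22 (adjusted p = 0.0603). The genes of chromosome 5 were themselves higher in AS podocytes. Their median log2 fold change was 0.20 over 685 genes, of which 77.8% were above 0. With the median of each chromosome removed, the Scarb1 log2 fold change was 0.04 (0.0387) and did not pass (adjusted p = 0.686).

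Npc1l1 (ENSMUSG00000020447.6, chromosome 11), the target of ezetimibe, was close to the limit of these libraries. It had 8, 13 and 12 counts in WT samples, compared with 16, 8 and 28 counts in AS samples. These are 0.158, 0.278 and 0.260 CPM in WT and 0.355, 0.156 and 0.509 CPM in AS podocytes. The groups overlapped, with the highest and the lowest sample both among the AS samples. The log2 fold change was 0.56 with a 95% interval from -0.61 to 1.72 (adjusted p = 0.431), which spans 0.656 to 3.30 times the WT level. With 1 sample left out it ran from 0.13 without AS replicate 3 to 0.90 without AS replicate 2, and was 0.34 without WT replicate 1, with no fit past the threshold.

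Among 13 other lipoprotein receptors and their regulators, 10 could be tested, of which 2 were higher and 4 lower in AS podocytes. The called genes were 60% of those tested, against 40.1% of all tested genes. The median log2 fold change of the list was -0.26, against 0.0061 over all tested genes. Sorl1, a sorting receptor, fell by 1.16 on the log2 scale (adjusted p = 0.000609), from 30.8 ± 5.17 to 13.8 ± 3.20 CPM (SD, n = 3 each). The ApoE receptor gene Lrp8 was 0.735 times the WT level (adjusted p = 0.00157). Vldlr, the VLDL receptor gene, was 1.29 times the WT level (adjusted p = 0.00471). Lrp1 is named although the rule for named genes did not select it. This gene, a large endocytic receptor that also binds ApoE, was the most abundant of the list and was 1.65 times the WT level, at 1717 ± 125 CPM in WT podocytes, against 2826 ± 671 CPM in AS podocytes (SD, n = 3 each, adjusted p = 0.00519). With chromosome medians removed, Vldlr (0.19, adjusted p = 0.102) and Lrp1 (0.39, adjusted p = 0.0799) did not pass. The list then had 0 genes higher and 5 lower, while 5367 of all 16263 tested genes passed in that fit. The scavenger receptor genes Msr1, Cd36 and Olr1 were not tested, with at most 4 counts over the 3 samples of a group.

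Npc2 (ENSMUSG00000021242.10, chromosome 12) and Npc1 (ENSMUSG00000024413.15, chromosome 18) encode the pair that carries cholesterol out of the lysosome. Npc2 reached 256, 289 and 279.9 CPM in WT samples 1 to 3, compared with 259, 242 and 255 CPM in AS samples 1 to 3. The ranges overlapped, as WT replicate 1 was below AS replicate 1. Its log2 fold change was -0.12 (standard error 0.06, 95% interval -0.27 to 0.02, adjusted p = 0.152). Without WT replicate 1, which stood apart from the other WT samples, it was -0.18 and passed the threshold (adjusted p = 0.0263). Npc1 reached 54.7, 53.8 and 51.0 CPM in WT samples 1 to 3, compared with 49.3, 46.4 and 49.5 CPM in AS samples 1 to 3. No AS sample reached a WT sample, with 48.4 ± 1.72 CPM in AS and 53.2 ± 1.93 CPM in WT podocytes (SD, n = 3 each). The Npc1 difference of -0.14 on the log2 scale (standard error 0.06, 95% interval -0.27 to -0.0023) did not pass after adjustment (edgeR, unadjusted p = 0.0469, adjusted p = 0.0983). The median over the genes of its chromosome was -0.10, and with chromosome medians removed Npc1 was at -0.03 (-0.0343, adjusted p = 0.697). Npc1 shares 511 exon bases with Rmc1 on the opposite strand, and no source says whether reads were counted by strand.

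Around this pair, 7 other genes of lysosomal sterol handling were tested, of which 3 were higher and 0 lower in AS podocytes by edgeR, with 1 gene at an unadjusted p under 0.05 among those below 0 (Stard3nl). Scarb2, which encodes the lysosomal membrane protein LIMP-2, was at 91.6 ± 3.22 CPM in WT podocytes, against 183 ± 9.93 CPM in AS podocytes (SD, n = 3 each), 2.00 times the WT level (adjusted p = 2.21e-06). Lipa, the acid lipase that releases cholesterol from endocytosed ester, was at 64.9 ± 3.16 and 117 ± 4.92 CPM (SD, n = 3 each), 1.81 times the WT level (adjusted p = 5.93e-06). Lamp1, an abundant lysosomal membrane glycoprotein, was higher by 0.38 on the log2 scale (adjusted p = 0.00182). With chromosome medians removed, Scarb2 and Lipa remained past the threshold, with log2 fold changes of 0.80 and 0.67, whereas Lamp1 was at 0.06 (0.0573, adjusted p = 0.561). Stard3nl, a late endosomal tether, had a log2 fold change of -0.22 (adjusted p = 0.0626). It passed by DESeq2 (adjusted p = 0.0490), without a filter (adjusted p = 0.0411), with a replicate block (adjusted p = 0.0275) and without WT replicate 1 (-0.30, adjusted p = 0.00362). The called genes were 42.9% of this list, against 40.1% of all tested genes, and the median over the 7 genes was 0.09 (0.0897). Of 10 cytosolic and membrane contact sterol carriers, Osbpl1a was higher at 1.24 times the WT level (adjusted p = 0.00944) and Gramd1b was lower at 0.733 times (adjusted p = 0.0266), the latter in 3 of 6 fits with 1 sample left out. The other 8 did not pass, among them Stard5 at -0.28 (adjusted p = 0.0609) and Osbpl2 at -0.17 (adjusted p = 0.0611). The called genes were 20% of this list, against 40.1% of all tested genes, and its median was 0.01 (0.0136). Stard5 passed by DESeq2 (adjusted p = 0.0385), without a filter (adjusted p = 0.0208), with a replicate block (adjusted p = 0.00954) and without WT replicate 1 (-0.38, adjusted p = 0.00661), and Osbpl2 passed with a filter at a mean of 1 CPM (adjusted p = 0.0440).

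Soat1 (ENSMUSG00000026600.13, chromosome 1), which encodes the esterifying enzyme ACAT1, was at 48.0, 44.9 and 46.8 CPM in WT samples, compared with 47.1, 44.8 and 42.8 CPM in AS samples. The 2 groups were interleaved. The log2 fold change was -0.05 (-0.0532) with a 95% interval from -0.19 to 0.09 (0.0862), that is 0.875 to 1.06 times the WT level (adjusted p = 0.536). Col4a3 lies on the same chromosome, whose median log2 fold change was -0.012. Soat2, the hepatic and intestinal isoenzyme gene, was not tested, with 4 counts over the WT and 10 counts over the AS samples. Of 5 other genes of ester formation and hydrolysis, 3 were tested. Lcat, which esterifies cholesterol on lipoproteins outside the cell, was at 2.49 ± 0.417 CPM in WT podocytes, against 6.32 ± 0.981 CPM in AS podocytes (SD, n = 3 each), 2.55 times the WT level (adjusted p = 0.000391). Nceh1, a neutral cholesteryl ester hydrolase gene, was 0.831 times the WT level (adjusted p = 0.0319). It passed in 3 of 6 fits with 1 sample left out, not without WT replicate 1, AS replicate 2 or AS replicate 3 (adjusted p up to 0.131), and not with chromosome medians removed (-0.17, adjusted p = 0.168). Lipe, the hormone-sensitive lipase gene, had a log2 fold change of -0.02 (-0.0198, adjusted p = 0.910), whose sign changed to 0.0084 when counts were scaled by library size only.

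Nr1h2 (ENSMUSG00000060601.14, chromosome 7), which encodes LXR-beta, was the member that was lower in AS podocytes. WT samples held 80.0, 72.3 and 77.4 CPM, and AS samples held 67.9, 67.9 and 68.5 CPM. The AS samples lay within 1 CPM of each other and below every WT sample. The means were 76.6 ± 3.92 and 68.1 ± 0.360 CPM (SD, n = 3 each). The difference on the log2 scale was -0.17 (standard error 0.06, 95% interval -0.29 to -0.04, adjusted p = 0.0385). With 1 sample left out, the value stayed between -0.21 and -0.14 and passed the threshold in 1 of 6 fits, the one without WT replicate 2. It did not pass with library size only (-0.14, adjusted p = 0.0681), without a filter on low counts (-0.16, adjusted p = 0.0933) or with chromosome medians removed (-0.16, adjusted p = 0.0577).

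Nr1h3 (ENSMUSG00000002108.11, chromosome 2), which encodes LXR-alpha, had 19, 18 and 35 counts in WT samples, compared with 11, 4 and 25 counts in AS samples. These are 0.375, 0.385 and 0.759 CPM in WT and 0.244, 0.0778 and 0.454 CPM in AS podocytes. The groups overlapped, since AS replicate 3 was above WT replicates 1 and 2. The log2 fold change was -0.94 with a 95% interval from -2.25 to 0.37 (adjusted p = 0.230), an interval too wide to separate a fall from an equal level. With 1 sample left out it ran from -0.52 without AS replicate 2 to -1.66 without AS replicate 3, and was -0.54 without WT replicate 3, with no fit past the threshold. Per length, Nr1h3 made up 0.872 ± 0.365% of the RNA of both LXR genes in the WT line and 0.502 ± 0.362% in the AS line (SD, n = 3 each). Nearly all LXR RNA in both lines was therefore Nr1h2.

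Among 11 partners of LXR and enzymes that make or break down oxysterols, 9 were tested, with 2 higher and 0 lower in AS podocytes by edgeR, while 2 of those below 0 had an unadjusted p under 0.05 (Cyp27a1 and Cyp7b1). The called genes were 22.2% of those tested, against 40.1% of all tested genes, and the median log2 fold change of the list was 0.12. Rxra, the heterodimer partner of LXR, was at 50.8 ± 1.14 and 58.1 ± 2.79 CPM (SD, n = 3 each), 1.14 times the WT level (adjusted p = 0.0259). It lost the threshold in 4 of 6 fits with 1 sample left out, those without WT replicate 2, WT replicate 3, AS replicate 1 or AS replicate 3, with adjusted p up to 0.107. Cyp27a1, which makes 27-hydroxycholesterol, and Cyp7b1, which degrades it, had log2 fold changes of -0.49 and -0.82 (adjusted p = 0.0728 and 0.101).

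Abca1 (ENSMUSG00000015243.5, chromosome 4), the transporter that loads cholesterol and phospholipid onto lipid-poor apolipoprotein, was at 257, 228 and 209 CPM in WT samples, compared with 275, 194 and 242 CPM in AS samples. The highest and the lowest of the 6 samples were both AS samples, and the WT samples lay between them. The means were 231 ± 23.9 and 237 ± 40.7 CPM (SD, n = 3 each). The log2 fold change was 0.04 (0.0351, standard error 0.12) with a 95% interval from -0.24 to 0.31, that is 0.849 to 1.24 times the WT level (adjusted p = 0.844). Its sign depended on single samples, at -0.09 (-0.0937) without AS replicate 1 and 0.15 without AS replicate 2. The median over the genes of chromosome 4 was -0.16, and with chromosome medians removed Abca1 was at 0.20 (adjusted p = 0.247).

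**Figure D2:**
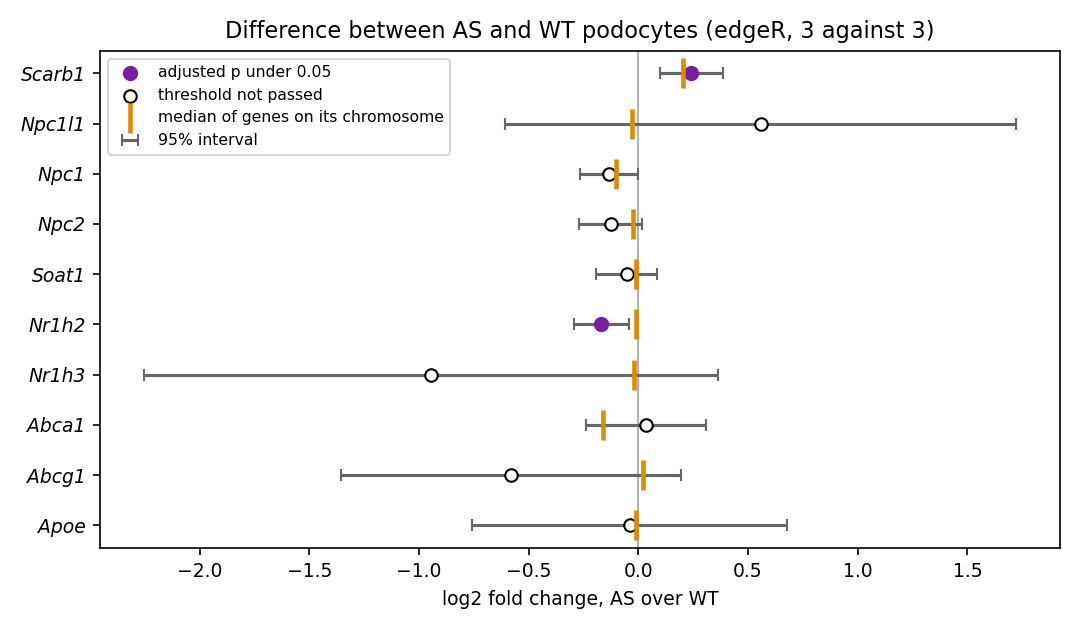
Log2 fold change (AS over WT, edgeR) of the 10 sterol genes with 95% intervals from 3 samples a group, and the median log2 fold change of the genes on the same chromosome as an orange bar. The interval of Scarb1 holds the median of chromosome 5, and the intervals of Nr1h2 and Npc1 stay below 0, although Npc1 did not pass after adjustment. The intervals of Nr1h3, Npc1l1, Abcg1 and Apoe are the widest.

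Within each line the deviations of Abca1 had the same signs as those of long genes, a relation looked at after its values had been seen. Relative to the mean of its group in log2 CPM, Abca1 stood at 0.16, -0.02 (-0.0171) and -0.14 in WT samples, compared with 0.23, -0.27 and 0.04 (0.0445) in AS samples. The median deviation of the 1190 genes with over 10000 exon bases was 0.0735, -0.0426 and -0.0285 in WT samples, compared with 0.0466, -0.0596 and 0.0256 in AS samples. Both had the same sign in all 6 samples, but the lowest WT sample was replicate 3 for Abca1 and replicate 2 for the long genes. The 1154 genes under 2000 exon bases had the opposite sign in each sample. Long and short genes share the scaling of each sample, so their signs are not independent. Abca1 itself has 10363 exon bases. The part of transcript length in its spread was not tested.

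**Figure D3:**
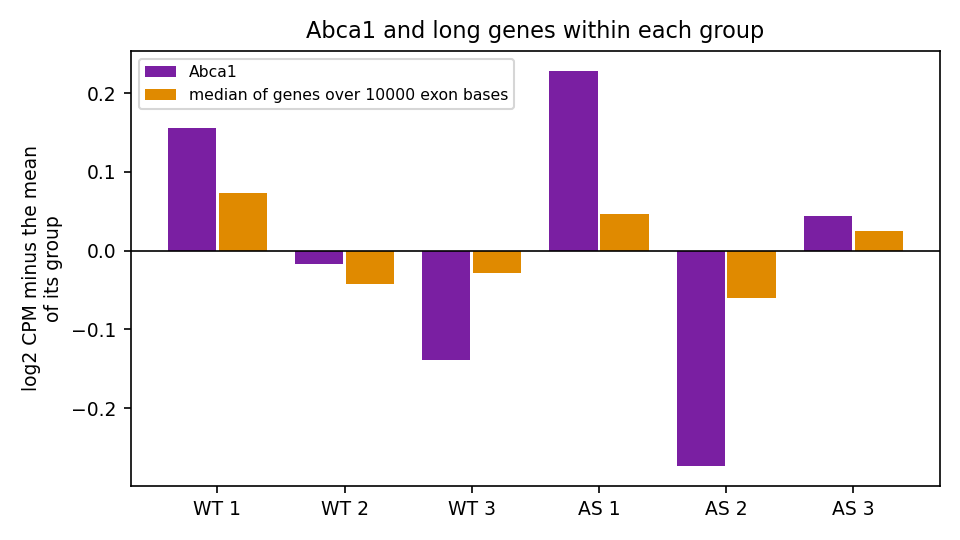
Log2 CPM of Abca1 (purple) and the median of 1190 genes with over 10000 exon bases (orange) in each sample, each minus the mean of its group of 3. Both are above 0 in WT 1, AS 1 and AS 3 and below 0 in WT 2, WT 3 and AS 2, with larger deviations for Abca1 than for the long genes except in WT 2.

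Abcg1 (ENSMUSG00000024030.8, chromosome 17), which moves cholesterol to HDL and within the cell, was at 3.16, 9.08 and 8.39 CPM in WT samples, compared with 5.13, 3.42 and 5.21 CPM in AS samples. WT replicate 1 was the lowest of the 6 samples, whereas the other WT samples were above every AS sample. The means were 6.87 ± 3.24 and 4.59 ± 1.01 CPM (SD, n = 3 each). The difference on the log2 scale was -0.58 (standard error 0.34, 95% interval -1.36 to 0.19, adjusted p = 0.213). Without WT replicate 1 it was -0.93, past the threshold (adjusted p = 0.00198). It also passed without a filter on low counts, at -0.58 (adjusted p = 0.0153), so that its call changed with 1 library, the WT sample that stood apart from the other WT samples over all genes, and with the genes entered in the fit.

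Apoe (ENSMUSG00000002985.17, chromosome 7), whose protein accepts cellular cholesterol and is a ligand of lipoprotein receptors, was at 2.62, 1.41 and 2.06 CPM in WT samples, compared with 1.15, 2.35 and 2.40 CPM in AS samples. The groups overlapped throughout. The log2 fold change was -0.04 (-0.0399) with a 95% interval from -0.76 to 0.68 (adjusted p = 0.936), and with 1 sample left out it ran from -0.25 to 0.22. Apoe, Abca1 and Abcg1 are all known LXR targets, and in these data they differed in level per length, with Abca1 at 22.3 ± 2.30 CPM per kb and Apoe at 0.950 ± 0.284 CPM per kb in WT podocytes (SD, n = 3 each).

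Other LXR target genes were examined as a list of 14 genes, of which 10 were tested. Of these, 5 were higher and 1 was lower in AS podocytes, or 60% of those tested, against 40.1% of all tested genes. The median log2 fold change was 0.41, against 0.0061 over all tested genes. Pltp, the phospholipid transfer protein gene, was at 60.5 ± 9.42 CPM in WT podocytes, against 165 ± 14.4 CPM in AS podocytes (SD, n = 3 each), 2.73 times the WT level (adjusted p = 1.13e-05). Pltp shares 495 exon bases with Ctsa on the opposite strand. Scd2 and Scd1, stearoyl-CoA desaturase genes on chromosome 19 that are also driven by SREBP-1, were 1.64 and 1.52 times the WT level (adjusted p = 0.000106 and 0.000692). Smpdl3a, a phosphodiesterase gene related to the acid sphingomyelinase family, fell by 2.39 on the log2 scale (adjusted p = 1.02e-05), from 12.5 ± 0.645 to 2.38 ± 0.633 CPM (SD, n = 3 each). The genes of this list therefore did not share 1 direction, and Scd1, Scd2, Pltp and Smpdl3a kept their directions and calls with chromosome medians removed.

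Among 9 other efflux transporters and acceptors, 7 were tested, of which 2 were higher and 4 lower in AS podocytes. The called genes were 85.7% of those tested, against 40.1% of all tested genes. Their list had a median log2 fold change of -0.36, against 0.0061 over all tested genes. The transporter gene Abcg2 was at 53.1 ± 7.08 CPM in WT podocytes, against 27.0 ± 1.61 CPM in AS podocytes (SD, n = 3 each), 0.509 times the WT level (adjusted p = 6.33e-05). Abcg4, the closest relative of Abcg1, fell by 2.13 on the log2 scale (adjusted p = 0.000449), from 1.73 ± 0.213 to 0.389 ± 0.113 CPM (SD, n = 3 each). Abca3, a phospholipid transporter gene, was 0.753 times the WT level (adjusted p = 0.000591). Apod, a lipocalin gene, was 5.57 times the WT level (adjusted p = 0.00166) at 0.105 ± 0.0248 CPM in WT podocytes, against 0.592 ± 0.131 CPM in AS podocytes (SD, n = 3 each).

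Over all 7 lists, 56 of 69 genes were tested, with 16 higher and 11 lower in AS podocytes, or 48.2% of those tested, against 40.1% of all genes tested. The lists were not tested as sets. With chromosome medians removed, 11 list genes were higher and 11 were lower, and 0 of the 10 members passed the threshold in edgeR. In that fit 5367 of all 16263 tested genes passed. Without that step 2 members passed by DESeq2 and 2 by limma-voom, and 3 members had an unadjusted p under 0.05 in edgeR.

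**Figure D4:**
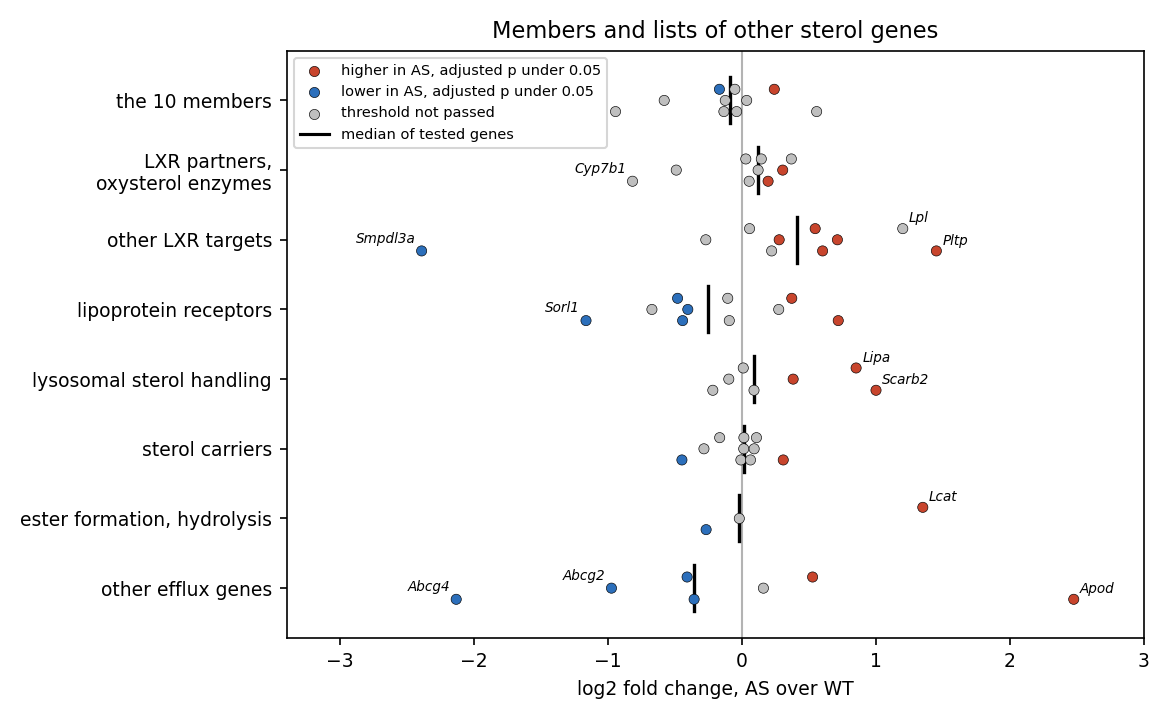
Log2 fold changes (AS over WT, edgeR) of the 10 sterol genes and of the tested genes of 7 lists, 1 point per gene, coloured by call, with the median of each row as a black bar. Most members lie closer to 0 than the other LXR targets and the other efflux genes, whose called genes run from -2.39 (Smpdl3a) to 2.48 (Apod).

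**Figure D5:**
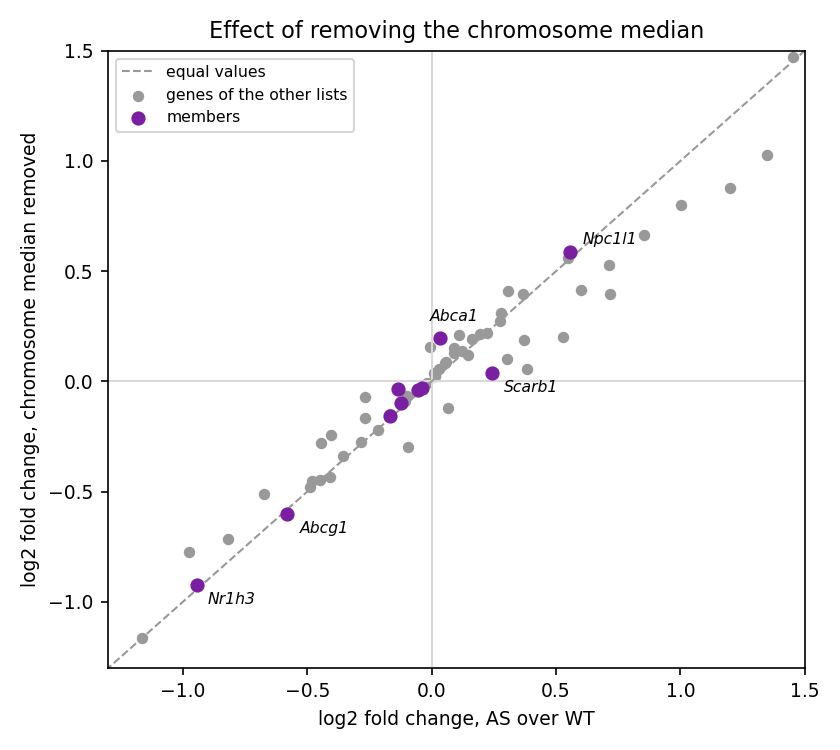
Log2 fold change (AS over WT) against the same value with the median of each chromosome removed, for the 10 members (purple) and the list genes (grey), of which 3 lie outside the axes. Scarb1 drops from 0.24 to 0.0387 and Abca1 moves from 0.0351 to 0.20, while Abcg1, Nr1h3 and Npc1l1 stay near the line of equal values.

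The genes most like the called members in log2 CPM were sought among 9155 others with a mean of at least 10 CPM. Over the 6 samples, Scarb1 was most like Pdgfa (Pearson r = 0.998), Ddit3 (ENSMUSG00000025408.16, r = 0.997) and Psmd7 (r = 0.996), all of them higher in AS podocytes. Nr1h2 was most like Ndufv2 (r = 0.994), Ubac2 (r = 0.989) and S100pbp (r = 0.989), of which S100pbp alone passed the threshold. These correlations hold the difference between the lines and come from 6 samples, so they are a description with no test.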

How the data were processed

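RNA of 3 WT and 3 AS podocyte samples was sequenced from mRNA libraries made with 100 ng of total RNA and 15 cycles of PCR. The table that the authors deposited gives raw counts for each gene and sample, with no normalization and no pooled columns. The submitters' processing notes name FastQC, Trim Galore, STAR and edgeR, without versions, and the mm39 build, while no counting tool or annotation release is named in the sources read. Groups and replicate numbers were taken from the sample descriptions.

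Identifiers were stripped of their version and matched to GENCODE M21 (GRCm38), which named 51880 of 57132 genes, and 0.363% of the counts were on genes without a name. M21 served for names, chromosomes and merged exon lengths only. Promoters are RefSeq windows of GRCm38.p6.

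The analysis used edgeR 4.0.16 in R 4.3.3. The filter was filterByExpr (at least 10 counts, and 15 in total), samples were scaled by TMM, and compared with the quasi-likelihood test, two-sided, with genotype as the only term and Benjamini-Hochberg adjustment. Standard errors were derived from the F statistic, and the 95% interval uses the t quantile at the fitted degrees of freedom. CPM were computed from the deposited counts. The chromosome median was taken over tested genes whose log2 CPM averaged more than 2. The scripts were tested on simulated data. Alternatives were other size factors, library size only, DESeq2 1.42.0, limma-voom (limma 3.58.1, the study's method), no filter, a filter at a mean of 1 CPM, a block on replicate number, chromosome medians removed and each sample left out. With 3 samples a group an exact permutation test reaches 0.10 at the lowest, so none was run, and outlying samples were not tested.

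The members and lists were chosen with earlier results of these data known. Named genes are Col4a3, the members, the 4 or fewer best-ranked genes per list by adjusted p, up to 3 markers of each cell type with the highest CPM, and 3 genes most like each extreme called member. Other genes named were added after their values were seen. Some genes of the lists and markers are counted but not reported here by name.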

Additional observations from a re-analysis of the deposited data

How the results depend on the processing

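Over all alternatives, 121 of 138 values of the 10 members stayed on the same side of 0 and of the threshold, 10 dropped below the threshold, 3 came to pass it and 4 changed sign. Col4a3 kept both under every alternative, between -4.14 and -3.85 with 1 sample left out. Scarb1 lost the threshold with chromosome medians removed (0.0387) and ran from 0.20 to 0.28 with 1 sample left out. Nr1h2 lost it with library size only (-0.14), without a filter (-0.16) and with chromosome medians removed (-0.16), and ran from -0.21 to -0.14 with 1 sample left out. Abcg1 passed it without a filter (-0.58) and ran from -0.93 to -0.33, Npc2 ran from -0.18 to -0.09 (-0.0889), Abca1 from -0.09 (-0.0937) to 0.15 and Apoe from -0.25 to 0.22 with 1 sample left out. The cause was not tested. The number of members higher in AS podocytes was 1, or 0 with chromosome medians removed, and 0 to 1 with 1 sample left out. The number lower was 1, or 0 with library size only or chromosome medians removed, and 0 to 2 with 1 sample left out. An equal number did not always mean the same gene. Without a filter Abcg1 took the place of Nr1h2, and without WT replicate 1 the lower members were Npc2 and Abcg1. The number of all genes called was 5367 with chromosome medians removed, 7066 with the replicate block, 6693 with DESeq2 and 5120 to 6776 with 1 sample left out, against 6517. Nr1h3 and Npc1l1 could not be given with a mean CPM of at least 1, which they do not reach.

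Of 376 values of the 27 list genes chosen by rank, 345 stayed on the same side of 0 and of the threshold, 18 dropped below it, 10 came to pass it and 3, all of Lipe, changed sign, at 0.0084 with library size only and between -0.09 (-0.0927) and 0.06 (0.0617) with 1 sample left out. Samples that share a number deviated from their group means with correlations of 0.147, 0.0939 and 0.0526. Samples of unlike number had correlations from -0.130 to 0.0571. Whether a number marks a shared set was not tested, and the main fit did not pair the samples. With the replicate number as a block, Scarb1 was at 0.24 and Nr1h2 at -0.17, both past the threshold, no call on a member changed and the number of members called was 2. Nr1h3 and Npc1l1 had 4 to 35 counts per sample. Apoe had 52 to 133 counts, with a coefficient of variation of 29.9% in WT and 35.8% in AS samples.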

Other observations

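Abca1 was most like Syap1 (Pearson r = 0.970), Trerf1 (r = 0.968) and Cdc5l (r = 0.963) over the 6 samples, a comparison added after its values were seen and given with no test. None of the 3 passed the threshold between AS and WT podocytes (edgeR, adjusted p up to 0.953), and 0 of them have over 10000 exon bases. In addition, Srebf1 and Arl4c, LXR targets outside the rule for named genes, were 1.21 and 1.46 times the WT level (edgeR, adjusted p = 0.00830 and 0.00187), and Abca7, an efflux transporter gene on chromosome 10, was 1.44 times the WT level (adjusted p = 0.00438) but did not pass with chromosome medians removed (log2 fold change 0.20, adjusted p = 0.192).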
